A study of Danio rerio with 4 samples.

Results

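Claudins are the proteins that build tight junctions, the seals between neighbouring cells of an epithelium or of a vessel wall. Each claudin spans the cell membrane several times, and its extracellular loops meet those of a claudin on the next cell. Some claudins close the gap between cells, whereas others form pores that let ions or water pass, so that the mixture of claudins in a tissue sets how leaky its cell layer is. Teleost fish carry many more claudin genes than mammals, and individual zebrafish paralogs are known from skin, gut, vessels, brain or ear. Here 30 claudin genes were followed among the 25196 gene IDs of the Ribo-seq table. They were taken by symbol, as all symbols that begin with cldn except the myelin gene cldnk and the symbols that begin with cldnd, which removed 4 of 34 genes. All 30 were also found among the 26662 gene IDs of the RNA-seq table. Another 8 genes that an annotation table names as claudins carry clone symbols in the Ribo-seq table and lie outside this choice.

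The samples were heads of 5 dpf zebrafish of the AB strain, from noc4l mutants and from their siblings. The mutation was made with CRISPR/Cas9 by targeting exon 4 of noc4l, which encodes a nucleolar factor of small ribosomal subunit assembly, and it is carried by the whole animal. The labels call the sibling libraries WT, whereas the study calls them siblings, and heterozygotes among them and the number of heads per library were not given in the sources used here. RNA-seq counts polyadenylated transcripts, and Ribo-seq counts the RNA fragments that ribosomes protect from RNase (footprints), here after cycloheximide treatment. The heads for both assays were collected separately, with 1 library for each genotype and assay.

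The estimated counts, rounded to whole numbers, summed to 12180999 in the smallest library (Ribo-seq sibling) and to 19823803 in the largest (Ribo-seq mutant). noc4l itself had 443 RNA counts in the sibling and 45 in the mutant library. The log2 ratio of mutant over sibling was -3.58 (95% counting interval -4.07 to -3.15). Libraries were scaled by TMM, and a translation efficiency ratio is the footprint ratio divided by the RNA ratio. Because each genotype and assay has 1 library, no test was possible, intervals cover counting error only, and the spread between fish is unknown. Higher or lower below means a level that differed by 2-fold or more between mutant and sibling library, in a gene with at least 100 counts summed over the assay. The 4 most abundant loci took 51.1% of the sibling footprint counts and 18.98% of the mutant footprint counts, so footprint ratios depend on how the libraries are scaled, and each footprint or translation efficiency ratio below is a TMM value unless another scaling is named.

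The count minimum was passed by 22 of the 30 claudins in RNA and by 20 in footprints, and 19 passed it in both assays. cldn10a, cldn10b, cldn10l2, cldn17, cldn18, cldn23b and cldng passed it in neither assay, and cldn18, which in mammals belongs to stomach and lung, had 0 counts in all 4 libraries. Claudins under the minimum had 0 to 71 RNA counts or 0 to 48 footprint counts over both genotypes. The weakest claudin above it had 120 RNA counts and the weakest in footprints 117.

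In RNA, 2 of the 22 measured claudins were higher in the mutant library, cldn7a and cldn1, and 2 were lower, cldn15la and cldn15lb. Of the 17243 genes measured in RNA, 3.14% were higher and 6.16% lower. In footprints, 1 of 20 claudins was higher, cldn7a, and 1 was lower, cldn15la, against 1.90% and 3.61% of the 15729 genes measured. In translation efficiency, cldn7a was the 1 claudin of 19 that was higher and none was lower, against 3.55% and 3.18% of 14455 genes. The median log2 ratio of the measured claudins was 0.19 in RNA, where that of all measured genes was 0.01. It was -0.12 in footprints and -0.35 in translation efficiency, where all measured genes had 0.02 and -0.01.

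**Figure D1:**
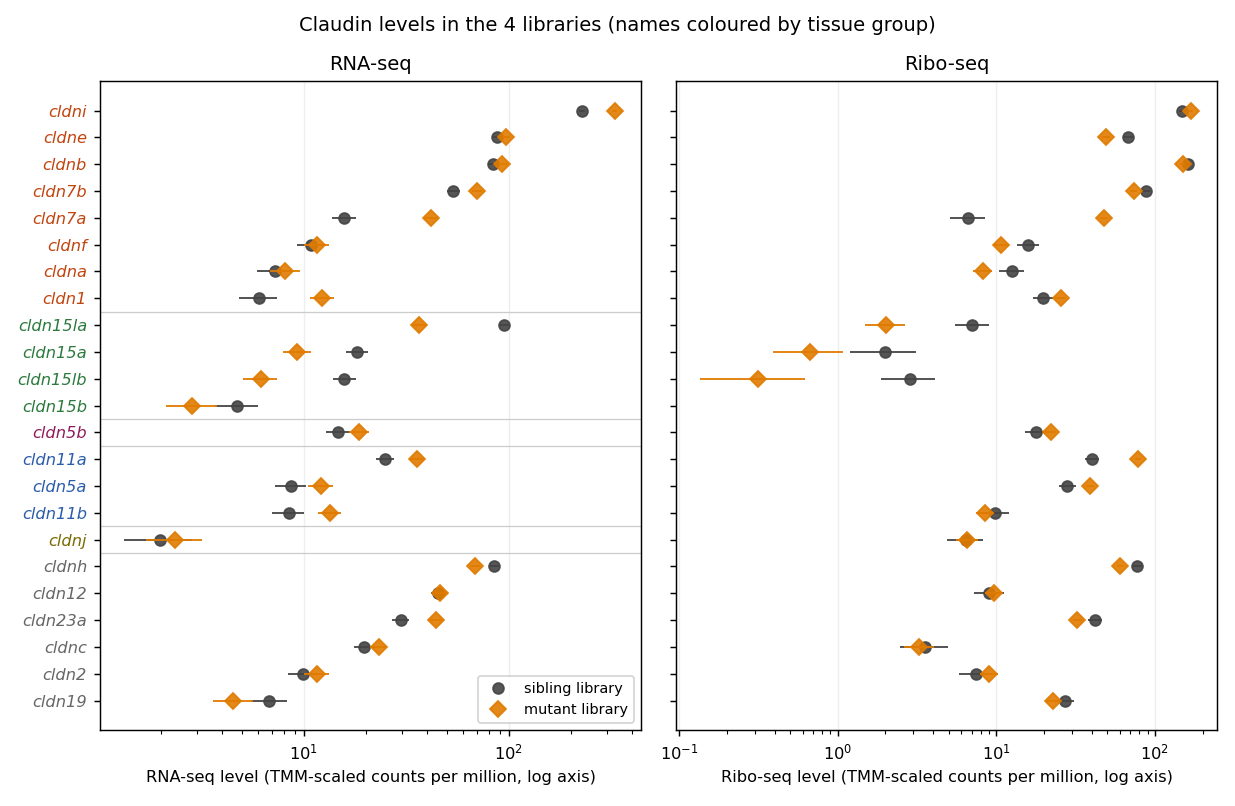
Levels of the 23 claudins that passed the count minimum in either assay, as TMM-scaled CPM (counts relative to library size) on log axes, for the sibling (grey circles) and mutant (orange diamonds) library of RNA-seq (left) and Ribo-seq (right). Bars are exact Poisson 95% intervals, names are coloured by tissue group (from top: skin and surface, gut and liver, vessel, brain, ear, other), and a level of 0, as for cldn15b in footprints, is not drawn.

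Levels of different genes were compared per length, by the deposited FPKM for RNA and TPM for footprints. cldni, a claudin of the skin, had the highest RNA level of the 30 in both genotypes, with 123 FPKM in the sibling and 188 FPKM in the mutant library. cldn15la, a claudin of the intestinal epithelium, came next in the sibling library with 98.8 FPKM and ranked 4 of 30 in the mutant library with 40.1 FPKM. cldnb, known from skin and from the migrating lateral line primordium, had 73.6 and 86.3 FPKM and ranked 3 and 2 of 30. In footprints the order was different. cldnb ranked first in the sibling library with 122 TPM and cldni second with 114 TPM, while in the mutant library cldni led with 274 TPM and cldnb followed with 239 TPM. cldn15la, with so high an RNA level, ranked 15 of 30 in sibling footprints with 5.22 TPM and 20 of 30 in mutant footprints with 3.15 TPM.

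The paralogs of skin and other outer epithelia (cldn1, cldn7a, cldn7b, cldna, cldnb, cldne, cldnf and cldni) made up most of the claudin signal. They held 55.8% of the 12887 claudin RNA counts in the sibling library (Clopper-Pearson 95% interval 54.9% to 56.6%) and 66.2% of 17850 in the mutant library (65.5% to 66.9%). The gut and liver claudins held 15.1% and 5.47% of these RNA counts, and a fall of one share by itself raises the others. In footprints, where the gut and liver claudins held only 1.48% and 0.361%, the outer paralogs had 64.7% of 7648 counts in the sibling library (63.6% to 65.8%). They had 64.3% of 21064 in the mutant library (63.6% to 64.9%), and these intervals overlap. Within the outer group, cldn7a, cldni and cldn1 took a larger share of footprints in the mutant library and cldnb, cldn7b, cldne, cldnf and cldna a smaller one. All 8 had an RNA ratio above 1, with a median log2 ratio of 0.28, and the interval lay above 0 for 6 of them. Over all genes measured in RNA, it lay above 0 for 4874 of 17243. The skin marker genes were mostly keratins, desmosome and basal epidermis genes, with agr1, agr2, icn, icn2, lgals2b, pfn1, anxa1b and anxa1c also among them. agr2 is counted with the gut markers too. The skin markers stood at a median of -0.20, with 9 of 35 above 0, 0 higher and 2 lower. Of all genes measured in RNA, 51.0% were above 0, 3.14% higher and 6.16% lower. The summed RNA level of the skin markers was 24053 CPM in the sibling and 19625 CPM in the mutant library, while that of the 8 claudins was 492 and 660 CPM. In heads analysed in bulk, more cells of a type and more RNA per cell cannot be told apart, nor can fewer cells and less RNA.

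cldn7a was the claudin that differed most. Its RNA counts were 229 in the sibling and 743 in the mutant library, and its footprint counts were 63 and 1216. Both mutant libraries were thus above their sibling library, by far more in footprints than in RNA. The RNA level was 2.64-fold higher (2.28 to 3.08), the footprint level 7.18-fold higher (5.61 to 9.48) and the translation efficiency 2.72-fold higher (2.03 to 3.64). From the top of all measured genes, cldn7a ranked 224 of 17243 in RNA, 14 of 15729 in footprints and 140 of 14455 in translation efficiency. It took 0.824% of the claudin footprint counts in the sibling library (0.634% to 1.05%) and 5.77% in the mutant library (5.46% to 6.10%). Mammalian claudin-7 is a claudin of many epithelia and also lies along the sides of the cells.

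Its paralog cldn7b, the other zebrafish gene related to mammalian claudin-7, took a different course in footprints. cldn7b had 781 and 1254 RNA counts and 834 and 1865 footprint counts in the sibling and mutant libraries. Its log2 ratio was 0.39 in RNA (0.26 to 0.52) and -0.26 in footprints (-0.37 to -0.14). A library size factor acts alike on both genes, so the difference of their count ratios does not depend on it. cldn7a exceeded cldn7b by 1.01 in RNA (0.76 to 1.26), by 3.10 in footprints (2.72 to 3.48) and by 2.09 in translation efficiency (1.63 to 2.54). From the deposited FPKM and TPM with 1 added these differences were 0.94, 2.88 and 1.94. In the sibling library cldn7b footprints outnumbered those of cldn7a by level, at 66.1 against 5.06 TPM, and in the mutant library the values were 117 and 77.5 TPM. In RefSeq on GRCz12tu, cldn7b overlaps nlgn2b, while cldn7a overlaps no other gene.

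cldn1 was the second claudin higher in RNA. In mice claudin-1 is required for the water barrier of the epidermis. It had 88 RNA counts in the sibling and 219 in the mutant library. The RNA log2 ratio was 1.02 (0.66 to 1.40), just above the 2-fold line and with an interval that reaches under it. It had 188 and 648 footprint counts, with a log2 ratio of 0.37 (0.13 to 0.61), so that the translation efficiency ratio was -0.65 on the log2 scale (-1.08 to -0.22). The footprint ratio of cldn1 thus lay below its RNA ratio, the opposite order to cldn7a.

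The most abundant paralogs of this group differed by less than 2-fold. cldni had 3322 and 5857 RNA counts and 1416 and 4277 footprint counts, log2 ratios of 0.52 (0.46 to 0.59) and 0.18 (0.09 to 0.27). cldnb had 1223 and 1662 RNA counts and 1534 and 3801 footprint counts, log2 ratios of 0.15 (0.04 to 0.26) and -0.11 (-0.19 to -0.02). cldne, known from the outer cell layer of the embryo, had 1283 and 1732 RNA counts and 644 and 1248 footprint counts, log2 ratios of 0.14 (0.03 to 0.24) and -0.46 (-0.60 to -0.32). In each of these genes, as in cldn7b, the footprint ratio lay below the RNA ratio. The less abundant cldnf and cldna had RNA log2 ratios of 0.09 (-0.21 to 0.40) and 0.17 (-0.20 to 0.55), both with intervals that include 0. Their footprint log2 ratios were -0.56 (-0.85 to -0.26) and -0.61 (-0.93 to -0.27).

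Translation efficiency therefore separated cldn7a from the other outer claudins. For 7 of the 8 the log2 translation efficiency ratio was below 0 with an interval below 0, from -0.78 for cldna to -0.26 for cldnb. Over all measured genes, the interval lay below 0 for 3120 of 14455. cldn7a stood at 1.44 (1.02 to 1.86). The median of the 8 was -0.62, and that of the 35 skin markers -0.06. With libraries scaled by total counts the ratios of 4 of the 8 were above 0, and with the deposited FPKM and TPM those of all 8. Under each of these scalings the translation efficiency ratio of all genes moved too, to a median of 0.62 and of 0.86, and the same 7 of 8 claudins stayed below that median. The sign thus depended on the scaling. Total counts shift every gene alike, so a place relative to the median gene could not change there, and only the deposited values could move it.

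**Figure D2:**
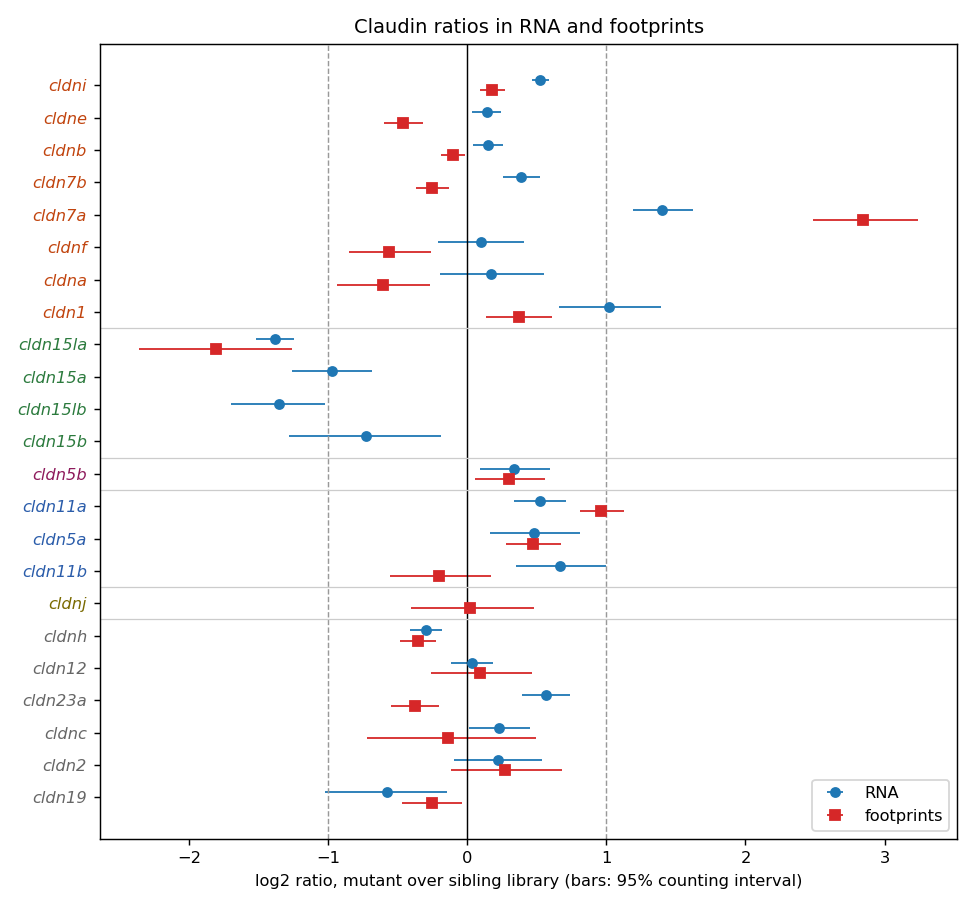
Log2 ratio of the mutant over the sibling library for each claudin, in RNA (blue circles) and in footprints (red squares), with 95% counting intervals. Dashed lines mark a 2-fold difference, only values past the count minimum are drawn, and cldn7a at 1.40 and 2.84 and cldn15la at -1.38 and -1.81 stand farthest from 0 in footprints.

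The claudins of gut and liver (cldn15la, cldn15lb, cldn15a and cldn15b) went the other way. They were kept as a single group, and bulk heads do not show which tissue carried each of them. cldn15la had 1385 RNA counts in the sibling and 650 in the mutant library, which was 0.383 of the sibling level after scaling (0.348 to 0.421). Its footprint counts were 67 and 51, or 0.286 of the sibling level (0.194 to 0.417). Its translation efficiency ratio was -0.42 on the log2 scale (-0.96 to 0.12), an interval that includes 0. With total counts in place of TMM the footprint log2 ratio of cldn15la was -1.09 in place of -1.81, and from the deposited TPM with 1 added it was -0.58, which is under 2-fold.

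Its paralog cldn15lb had 230 and 110 RNA counts, a log2 ratio of -1.35 (-1.70 to -1.02). cldn15a, the zebrafish gene known for the formation of a single gut lumen, had 266 and 166, a log2 ratio of -0.97 (-1.26 to -0.69). cldn15b had 69 and 51, a log2 ratio of -0.73 (-1.28 to -0.19). All 4 had RNA ratios below 1 with intervals below 0, as did 4814 of the 17243 genes measured in RNA, and 2 of the 4 passed 2-fold. Within the pairs the RNA ratios could not be separated. The difference was -0.03 between cldn15la and cldn15lb (-0.38 to 0.32) and -0.25 between cldn15a and cldn15b (-0.84 to 0.34). In footprints the other 3 were under the minimum, with 27 and 8 counts for cldn15lb, 19 and 17 for cldn15a, and 0 and 0 for cldn15b. The Poisson interval of a count of 0 reaches 3.69 counts in a library.

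The share of the 4 genes in all claudin RNA counts was 15.1% in the sibling (14.5% to 15.8%) and 5.47% in the mutant library (5.14% to 5.82%). In footprints it was 1.48% (1.22% to 1.77%) and 0.361% (0.284% to 0.451%). The gut markers were mostly enterocyte absorption, brush border and lysosome-rich cell genes, with cel.1, pdx1, agr2 and espn also among them. They moved in the direction of the gut and liver claudins by more, with 25 of 32 lower and 0 higher in RNA, against 6.16% and 3.14% of all genes. The gut markers had a median log2 ratio of -2.15, where the 4 claudins of gut and liver had -1.16. The summed RNA level of the gut markers was 8135 CPM in the sibling and 1654 CPM in the mutant library. In footprints 11 of 21 gut markers were lower and 0 higher, against 3.61% and 1.90% of all genes, and fabp6 and lrp2b were at 0 in both libraries. Among liver markers 13 of 22 were lower and 1 higher in RNA, and 21 of 22 lower in footprints. The liver marker median was -1.10 in RNA, close to that of the 4 claudins, and -2.97 in footprints. In these libraries of heads, the liver markers summed to 24745 CPM of RNA in the sibling and 11867 CPM in the mutant library. How much gut and liver tissue each pool of heads carried was not given. With 1 library per genotype, a difference in that amount cannot be told apart from a difference between genotypes. The part of gut and liver cells in these claudin values was not tested.

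Within each genotype, the gut and liver claudins had few footprints for their RNA by CPM. In the sibling libraries the 4 genes together had 11.2 CPM of RNA for each CPM of footprints, and the gut and liver markers had 14.0 and 8.82. In the mutant libraries these values were 18.2, 7.46 and 12.9. The outer claudins had 0.947 in the siblings and 1.24 in the mutants, and the brain claudins 0.538 and 0.486. Among single genes, cldn15la had 0.0742 CPM of footprints per CPM of RNA in the siblings, against a median of 0.736 over all measured genes, while cldn1 had 3.28 and cldn5a 3.25. cldn19, whose human ortholog is known for magnesium handling by the kidney and for the eye, had the highest value of the measured claudins with 4.01. CPM do not correct for length. As sibling footprint TPM per RNA FPKM, cldn15la had 0.0528, cldn1 1.65, cldn5a 3.93 and cldn19 4.67, against a median of 0.654. Of the same gut and liver group, cldn15a and cldn15lb, under the minimum in footprints, had 0.461 and 0.218 by this measure. Heads for RNA-seq and Ribo-seq were separate collections, so a ratio between assays also holds any difference between these dissections, which cannot be told apart from translation.

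**Figure D3:**
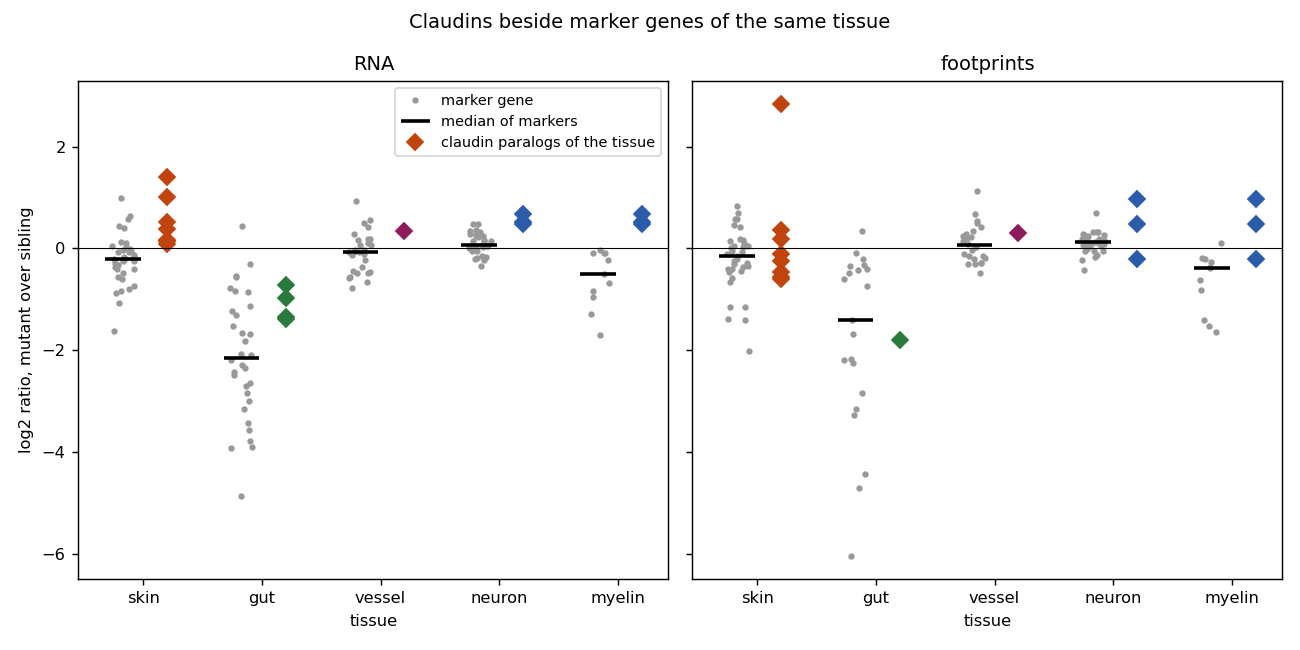
Log2 ratio of the mutant over the sibling library for marker genes of 5 tissues (grey points, with the median as a black line) and, beside them, for the claudin paralogs of that tissue (coloured diamonds), in RNA (left) and footprints (right). The 4 gut and liver claudins, drawn beside the gut markers only, lie between -1.38 and -0.73 in RNA where the gut marker median is -2.15. The 8 outer claudins lie above 0 in RNA where the skin marker median is -0.20, and the 3 brain claudins are drawn beside neuron and beside myelin markers.

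The vessel paralog cldn5b differed little. Claudin-5 is the main claudin of brain endothelium in mammals. Of its zebrafish paralogs, cldn5b was grouped here with vessels and cldn5a with the brain, where cldn5a is known for the seal of the ventricle lining. Bulk heads do not show which cells carried cldn5a, so brain vessels may be among them. cldn5b had 214 and 332 RNA counts and 170 and 560 footprint counts, log2 ratios of 0.34 (0.09 to 0.59) and 0.30 (0.05 to 0.56). Vessel markers had medians of -0.07 in RNA and 0.06 in footprints. In RNA 0 of 28 were higher or lower, against 3.14% and 6.16% of all genes. In footprints 1 of 24 was higher, against 1.90% of all genes. The summed RNA level of the vessel markers was 667 CPM in the sibling and 647 CPM in the mutant library.

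cldn5a had 126 and 216 RNA counts and 267 and 990 footprint counts. Its log2 ratios were 0.48 in RNA (0.16 to 0.81) and 0.47 in footprints (0.28 to 0.68), both in the direction of cldn5b. The difference between cldn5a and cldn5b was 0.14 in RNA (-0.26 to 0.54) and 0.17 in footprints (-0.14 to 0.49), so these counts do not separate the paralogs. Their translation efficiency ratios of -0.01 and -0.04 lay close to the median of all genes.

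The other brain paralogs, cldn11a and cldn11b, parted in footprints. In mammals claudin-11 seals the layers of myelin. Which cells of these heads carried cldn11a and cldn11b cannot be seen in bulk, and their place in the brain group was not tested. cldn11a had 364 and 640 RNA counts and 382 and 1990 footprint counts, log2 ratios of 0.52 (0.33 to 0.71) and 0.96 (0.81 to 1.13), the latter just under 2-fold. cldn11b had 123 and 240 RNA counts and 93 and 216 footprint counts, log2 ratios of 0.67 (0.35 to 1.00) and -0.20 (-0.56 to 0.17). Their RNA ratios could not be separated, with a difference of -0.15 (-0.51 to 0.22). In footprints cldn11a exceeded cldn11b by 1.17 (0.78 to 1.55) and in translation efficiency by 1.32 (0.79 to 1.85). From the deposited FPKM and TPM with 1 added the differences were 0.16 in RNA, 1.22 in footprints and 1.07 in translation efficiency. After cldn7a, cldn11a had the largest footprint ratio of the claudins and was the only other one with a translation efficiency interval above 0 (0.20 to 0.69). With total counts its footprint log2 ratio was 1.68, past 2-fold. Under that scaling the median of all genes was 0.74 and 3474 of 15729 genes were higher.

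The 3 brain claudins held 9.70% of claudin footprint counts in the sibling (9.05% to 10.4%) and 15.2% in the mutant library (14.7% to 15.7%). In RNA they held 4.76% (4.40% to 5.14%) and 6.14% (5.79% to 6.50%). The members differed in footprints, where cldn11a went from 4.99% to 9.45% and cldn5a from 3.49% to 4.70%. cldn11b went from 1.22% to 1.03%, with overlapping intervals. Neuron markers had medians of 0.07 in RNA and 0.12 in footprints with none past 2-fold in either. Of all genes, 3.14% were higher and 6.16% lower in RNA, and 1.90% and 3.61% in footprints. Myelin markers were all 11 below 0 in RNA, with a median of -0.50, and 10 of 11 below 0 in footprints, with a median of -0.38. The whole interval lay below 0 for 6 of these 11 in RNA and for 8 of 11 in footprints. Over all measured genes, it lay below 0 for 4814 of 17243 in RNA and for 3163 of 15729 in footprints. The RNA of cldn11a and cldn11b therefore lay above 0 in libraries where, with TMM, each of the 11 measured myelin markers lay below it. Among those is cldnk, the claudin of zebrafish myelin, with 200 and 153 RNA counts and a log2 ratio of -0.68 (-0.99 to -0.37).

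**Figure D4:**
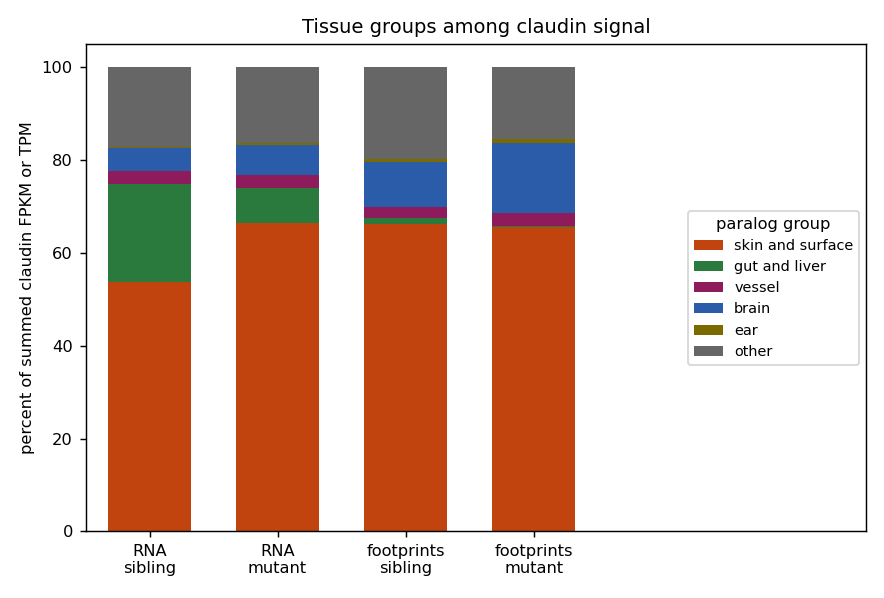
Share of each tissue group in the summed level of the 30 claudins, by deposited FPKM for the RNA libraries and TPM for the footprint libraries. Gut and liver claudins take 21.0% of the sibling and 7.52% of the mutant RNA level, and brain claudins 9.65% and 15.2% of the footprint level. Of the brain claudins, cldn11a alone takes 5.06% and 9.54% of the footprint level.

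The ear claudin cldnj, needed for otolith formation in zebrafish, had 29 and 42 RNA counts, under the minimum, and 61 and 166 footprint counts, a footprint log2 ratio of 0.02 (-0.40 to 0.48). Of the 13 claudins placed in no tissue group, 6 were measured in both assays and, with TMM, none of the 6 was past 2-fold. Of all genes, 3.14% were higher and 6.16% lower in RNA, 1.90% and 3.61% in footprints, and 3.55% and 3.18% in translation efficiency. With the deposited values, cldn12 and cldn2 were higher in footprints, as were 7009 of 15729 genes. By the same values cldn19 was higher in translation efficiency, as were 5255 of 14455 genes. cldnh had 1229 and 1225 RNA counts and 735 and 1534 footprint counts, log2 ratios of -0.30 (-0.41 to -0.18) and -0.36 (-0.48 to -0.23). It was the only one of the 8 most abundant claudins, besides cldn15la, with an RNA ratio below 1. cldn12, which in mammals lacks the usual binding end for junction scaffold proteins, had 655 and 821 RNA counts and an RNA log2 ratio of 0.03 (-0.12 to 0.18). Among these 6, RNA and footprints diverged most in cldn23a, with log2 ratios of 0.57 in RNA (0.40 to 0.74) and -0.38 in footprints (-0.55 to -0.20). Its translation efficiency ratio of -0.94 (-1.18 to -0.70) was the lowest of the 19. The remaining 3, cldn2, cldn19 and cldnc, had RNA log2 ratios between -0.58 and 0.23 and footprint log2 ratios between -0.26 and 0.27.

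Some claudin genes lie side by side in RefSeq on GRCz12tu. cldnj, cldne, cldnf and cldna form a run with no other protein-coding gene between them, and cldnh, cldnc and cldnb form another. In the first run the measured RNA log2 ratios were 0.14, 0.09 and 0.17 for cldne, cldnf and cldna, and their footprint log2 ratios -0.46, -0.56 and -0.61. The difference between cldne and cldnf was 0.04 in RNA (-0.27 to 0.36) and 0.10 in footprints (-0.22 to 0.42). Their deposited footprint counts were not whole, 643.91 and 151.09 in the sibling library. How reads shared by paralogs were handled was not given, so such reads may add to this likeness. In the second run the RNA ratios were less alike, with cldnh below cldnc by 0.53 (-0.77 to -0.28). Footprint counts that are not whole were also found there, 735.12 for cldnh and 1533.88 for cldnb in the sibling library.

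Over the 19 claudins measured in both assays, the RNA and footprint log2 ratios had a Pearson r of 0.779 and a Spearman coefficient of 0.614. Over all 14455 genes these were 0.558 and 0.320. The values are descriptions across genes of the same 4 libraries. Without cldn7a and cldn15la, a choice made after seeing the data, the 17 other claudins had a Pearson r of 0.437 and a Spearman coefficient of 0.461. Of the 19 claudins, 13 lay below the median translation efficiency ratio of all genes with TMM, and 11 with the deposited values. Total counts and DESeq2 size factors shift every gene alike, so they could not change this number.

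**Figure D5:**
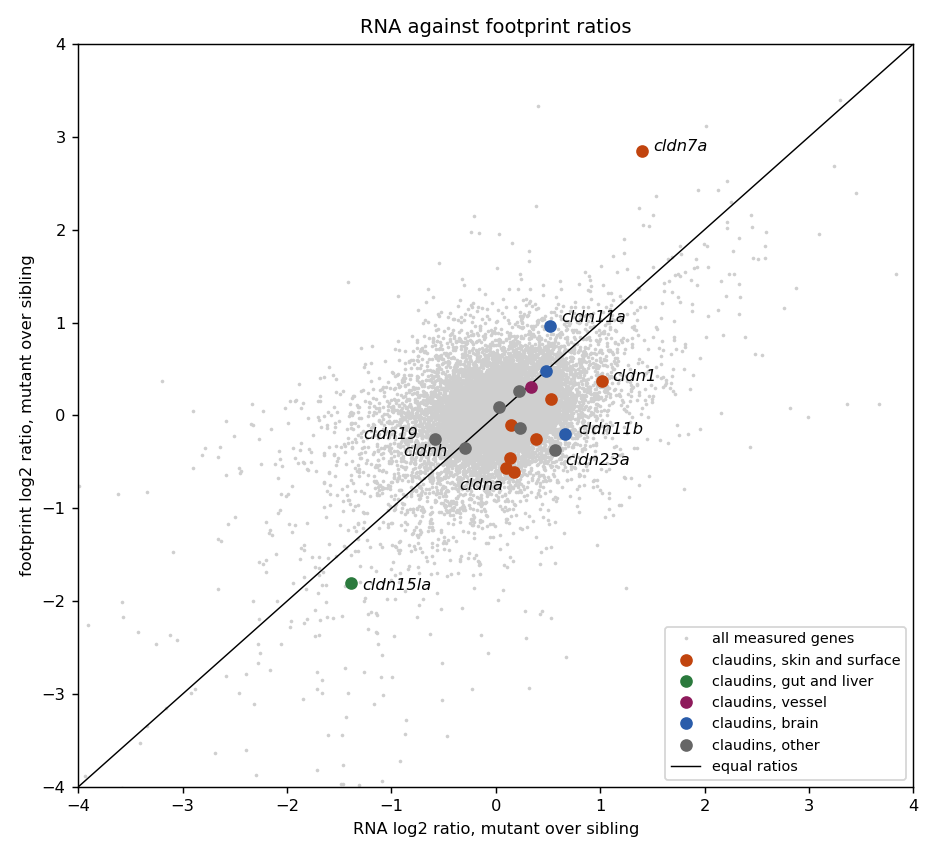
Footprint log2 ratio against RNA log2 ratio of the mutant over the sibling library, for all genes measured in both assays (grey points, those beyond the axes not drawn) and the 19 claudins (coloured by tissue group). cldn7a lies far above the line of equal ratios at 1.40 and 2.84, cldn11a lies above it at 0.52 and 0.96, and cldn1, cldn11b and cldn23a lie below it.

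Claudins work with other tight junction proteins. For these 72 symbols were listed, some of them alternative names, and 62 genes were found. The list also holds cldnk, which is counted with the myelin markers above. In RNA 4 of 59 measured genes were higher and 2 were lower, against 3.14% and 6.16% of all measured genes, and the median log2 ratio was 0.08. The higher genes were amotl2b (1.45, 1.29 to 1.62) and amot (1.09, 0.86 to 1.32), which encode angiomotins, ect2 (1.18, 0.93 to 1.43), which also acts in cell division, and marveld1 (1.00, 0.69 to 1.34), a MARVEL domain protein like occludin. The lower genes were f11r.2 (-1.25, -1.73 to -0.80), which encodes a junctional adhesion molecule, and cldnd1a (-1.02, -1.62 to -0.44), named a claudin domain gene. In footprints ect2 was the only one of 55 past 2-fold, at 1.05 (0.67 to 1.47), where 1.90% of all genes were higher and 3.61% lower, and the median was -0.11. In translation efficiency cldnd1a was the only one of 55, at 1.32 (0.63 to 2.00), where 3.55% of all genes were higher and 3.18% lower, and the median was -0.15.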

How the data were processed

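Heads of 5 dpf siblings and noc4l mutants were profiled by RNA-seq and Ribo-seq, with 1 library per genotype and assay (4 libraries). Per the submitters' processing notes, reads were aligned with HISAT2 and counted with featureCounts. Versions, genome build, annotation, strand setting and the handling of reads shared by paralogs were not given in the sources used here. Per gene and library the authors deposited an estimated count, beside it FPKM for RNA-seq and TPM for Ribo-seq. The authors' own fold changes and p-values, also deposited, were not used. Some estimated counts the authors deposited are not whole and were rounded for library sizes and intervals. A Ribo-seq row without a gene ID, with 0.00303% of sibling and 0.000746% of mutant counts, was left out.

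Here counts were scaled on whole tables by TMM in edgeR 4.0.16 under R 4.3.3. The sibling and mutant factors were 0.972 and 1.03 in RNA-seq and 0.781 and 1.28 in Ribo-seq. Log2 ratios were taken after adding 0.5 counts, for genes with 100 or more counts summed over an assay. Intervals are at 95%, exact conditional binomial for ratios, exact Poisson for counts and Clopper-Pearson for shares. Those of translation efficiencies and paralog differences are normal, with Poisson errors of each count. PCR copies were not removed by molecular identifiers, and the intervals cover counting error only. Alternatives were total counts, DESeq2 1.42.0 size factors, a minimum of 10 counts, 2 counts added, the deposited FPKM or TPM with 1 added, and, chosen after seeing the data, the Ribo-seq total without the 4 most abundant loci. Python 3.11.15, numpy 2.4.6, pandas 2.3.3, scipy 1.17.1 and matplotlib 3.10.9 were used.

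The claudins, their tissue groups (set from background knowledge of zebrafish and mammals) and the lists of markers and tight junction genes were chosen with earlier results of these data known. Named claudins are those past 2-fold in any comparison, the 8 with the highest RNA CPM and tissue group members with at least 100 RNA counts; other genes are given by counts and ranges, and a few more claudins were named after their values were seen. Of the 30 claudins 29 matched RefSeq on GRCz12tu, and 12 overlap another gene there, among them cldn7b, cldni, cldn12, cldn19, cldn2 and cldn15b.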

Additional observations from a re-analysis of the deposited data

How the results depend on the processing

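The 4 claudins past 2-fold in RNA were so under every scaling tried. A minimum of 10 counts added cldn10b to the lower claudins, which were then 3 of 26, where 2051 of 22579 genes were lower. The footprint and translation efficiency values moved with the scaling of the Ribo-seq libraries. With total counts, 5 of 20 claudins were higher in footprints (cldn1, cldn11a, cldn5a, cldn5b and cldn7a) with a median log2 ratio of 0.59. In translation efficiency 2 of 19 were higher (cldn11a and cldn7a) with a median of 0.29. Under this scaling 3474 of 15729 genes were higher in footprints and 2889 of 14455 in translation efficiency. With the deposited FPKM or TPM and 1 added, 8 of 20 claudins were higher and 0 lower in footprints with a median of 0.89. In translation efficiency 5 of 19 were higher with a median of 0.70. Of 15729 genes, 7009 were then higher and 123 lower in footprints, and 5255 of 14455 were higher in translation efficiency. The median footprint log2 ratio of all genes was 0.02 with TMM, 0.74 with total counts and 0.95 with the deposited TPM. With a minimum of 10 counts, 4 of 23 claudins were lower in footprints (cldn15a, cldn15la, cldn15lb and cldn23b) and 2 of 23 in translation efficiency (cldn15lb and cldn23b), since genes with few counts then entered. Of all genes, 1545 of 20836 were then lower in footprints and 1428 of 20132 in translation efficiency. DESeq2 size factors, 2 counts added and the Ribo-seq total without the 4 most abundant loci changed no call. No called claudin reversed. cldn7a stayed between 1.40 and 1.48 in RNA, 2.81 and 3.69 in footprints and 1.42 and 2.30 in translation efficiency. No paired analysis was possible because each genotype and assay has 1 library. The depth leaves cldn15a, cldn15b and cldn15lb without a usable footprint ratio.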

Other observations

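The deposited RNA FPKM imply a feature length for each gene and library, the count divided by the FPKM. Relative to the median gene, that length was 1.17 times as long in the mutant as in the sibling library for cldn11b, 1.14 times for cldn5b and 0.944 times for cldn23a, and in the Ribo-seq table it was 1.00 for each of these genes. The ratios from counts and from FPKM differ by these factors. For cldn11b the RNA log2 ratio was 0.67 from counts and 0.42 from the deposited FPKM with 1 added, and for cldn5b 0.34 and 0.21. The way lengths were set was not given in the sources used here.

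Of the claudins that carry clone symbols, zgc:110333, which an annotation table names cldn8.2, had 341 and 448 RNA counts and 193 and 436 footprint counts, log2 ratios of 0.10 (-0.11 to 0.31) and -0.24 (-0.49 to 0.01). si:dkey-221l4.11, named cldn23l there, had 10 and 31 RNA counts, under the minimum, and 74 and 246 footprint counts, a footprint log2 ratio of 0.31 (-0.06 to 0.71).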
